A study of Arabidopsis thaliana with 4 samples.

Results

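The genes described here were transcribed in wild-type Arabidopsis thaliana seedlings and close to or at 0 in seedlings of the ndx1-4 mutant. They were selected on their own values: at least 1 FPKM in both Col-0 libraries and at most 0.3 FPKM in both ndx1-4 libraries, with the seed storage genes AT1G03880 and AT1G03890 left out. FPKM is the number of fragments assigned to a gene, scaled to its length and to the total of the library. The rule gave 41 of the 1984 genes in the deposited table. Because all 4 libraries entered the rule, the levels of these genes are a description and carry no test.

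The study asked how transcription changes when NODULIN HOMEOBOX (NDX), a plant homeodomain protein connected with gene silencing and heterochromatin, is disrupted. The mutant seedlings carried the ndx1-4 T-DNA insertion, line WiscDsLox344A04 in the Col-0 background, and the wild-type seedlings were Col-0, all harvested at 10 days of age. Each genotype had 2 mRNA-seq libraries of whole seedlings. The study describes its mRNA-seq replicates as independent biological ones, and whether they came from separate plantings is not given in the sources used here.

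NDX itself (AT4G03090, chromosome 4, 1366053 to 1371557, minus strand, TAIR10) had 0.98 and 1.00 FPKM in ndx1-4, against 5.08 and 4.96 FPKM in Col-0. The mutant libraries were therefore low in the targeted gene, at 19.7% of the Col-0 mean, but not silent by the limit used above. Leaf-type transcripts were abundant in all libraries. LHCB5 and LHB1B1, of the light-harvesting complex, had 5019 and 5077 FPKM and 3394 and 3480 FPKM in ndx1-4, against 4823 and 4859 FPKM and 4155 and 4192 FPKM in Col-0. RBCS3B, a small subunit of Rubisco, had 4108 and 4372 FPKM in ndx1-4, against 4699 and 4738 FPKM in Col-0, so the first of the 3 was higher and the others lower in ndx1-4. The table holds only genes that the authors called, so a gene that is not listed has no value here. In whole seedlings, fewer cells of a type and less RNA per cell cannot be told apart.

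As background, several of these genes belong to programmes that plants switch on in bulk. Seed maturation is driven by a small network of transcription factors, FUS3 and relatives of LEC1 among them, that turns on storage and oil genes in the embryo and is shut off after germination. Small heat shock proteins are chaperones that hold unfolding proteins and are usually scarce without heat or outside maturing seeds. Shortage of phosphate or sulphate induces phosphatases and high-affinity transporters.

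The RY core, the P1BS site and the heat shock element core are short DNA motifs named for these programmes: RY elements are recognised by B3 factors such as FUS3, P1BS by PHR1-type regulators of phosphate starvation, and heat shock elements by heat shock factors. Below, 9 upstream stretches are shown, each ending at the base before the annotated start of the gene. Every stretch shown holds a match and has a length that includes it, so the 9 do not show how common matches are. They were read from the RefSeq TAIR10.1 assembly on the strand of the gene, and the capitals mark matches on either strand.
The first 4 stretches carry the P1BS motif GNATATNC in capitals and precede a phosphatase gene, a phosphate transporter gene and both DUF506 genes (DUF, domain of unknown function).
PAP14 (chr2:19266457-19266606, minus strand): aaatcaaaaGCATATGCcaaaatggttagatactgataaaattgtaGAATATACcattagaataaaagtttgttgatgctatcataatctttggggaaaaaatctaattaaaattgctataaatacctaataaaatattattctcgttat
PHT1;7 (chr3:20250949-20251078, minus strand): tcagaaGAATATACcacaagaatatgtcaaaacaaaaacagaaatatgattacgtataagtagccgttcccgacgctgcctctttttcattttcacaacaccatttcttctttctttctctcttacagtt
AT3G25240 (chr3:9192293-9192492, plus strand): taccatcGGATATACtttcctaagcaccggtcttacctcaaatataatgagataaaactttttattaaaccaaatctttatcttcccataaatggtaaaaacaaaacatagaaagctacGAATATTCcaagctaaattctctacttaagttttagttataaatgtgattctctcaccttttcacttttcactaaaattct
AT1G12030 (chr1:4066345-4066564, minus strand): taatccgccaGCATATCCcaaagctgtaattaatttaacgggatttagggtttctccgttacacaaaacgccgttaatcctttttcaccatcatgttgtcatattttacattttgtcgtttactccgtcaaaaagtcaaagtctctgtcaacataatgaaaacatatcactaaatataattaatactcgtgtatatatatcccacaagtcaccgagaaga
The next 4 carry the RY core CATGCA in capitals and precede genes of seed regulation or seed oil, a glycoprotein gene and the most abundant gene of the set.
KCS18 (chr4:16494075-16494204, plus strand): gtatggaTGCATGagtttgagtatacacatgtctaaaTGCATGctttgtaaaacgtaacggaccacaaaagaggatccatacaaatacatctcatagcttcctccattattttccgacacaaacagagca
FUS3 (chr3:9856213-9856252, minus strand): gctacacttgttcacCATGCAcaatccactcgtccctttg
AT1G54860 (chr1:20458632-20458701, minus strand): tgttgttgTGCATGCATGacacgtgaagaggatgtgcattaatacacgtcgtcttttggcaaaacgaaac
AT1G47540 (chr1:17456187-17456256, minus strand): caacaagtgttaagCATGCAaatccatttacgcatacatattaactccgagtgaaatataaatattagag
The last carries the heat shock element core GAANNTTC in capitals and precedes the gene of the chloroplast chaperone HSP21.
HSP21 (chr4:13819972-13820081, minus strand): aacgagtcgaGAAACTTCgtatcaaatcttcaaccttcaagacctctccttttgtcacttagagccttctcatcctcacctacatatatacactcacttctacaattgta

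Before the 2 storage genes were left out, 2.17% of the listed genes met the limits. All 41 genes had both ndx1-4 libraries below both Col-0 libraries, which the rule fixes, and 56.5% of all listed genes did so too. Summed over the 41 genes, the libraries held 2.80 and 2.92 FPKM in ndx1-4, against 259 and 278 FPKM in Col-0. The 5 highest genes made up 59.4% of the summed Col-0 mean, so the total speaks mainly for those 5. The median mean level was 0.055 FPKM in ndx1-4 and 2.72 FPKM in Col-0. Over all listed genes the medians were 28.1 FPKM in ndx1-4 and 31.1 FPKM in Col-0. The set thus sat at the low end of the table in both genotypes, which the rule fixes for ndx1-4. The median difference, ndx1-4 minus Col-0 on the log2(FPKM + 1) scale, was -1.76 for the set, where the rule fixes a drop, and -0.20 for all listed genes. The added 1 FPKM shrinks the difference of genes at this level.

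**Figure D1:**
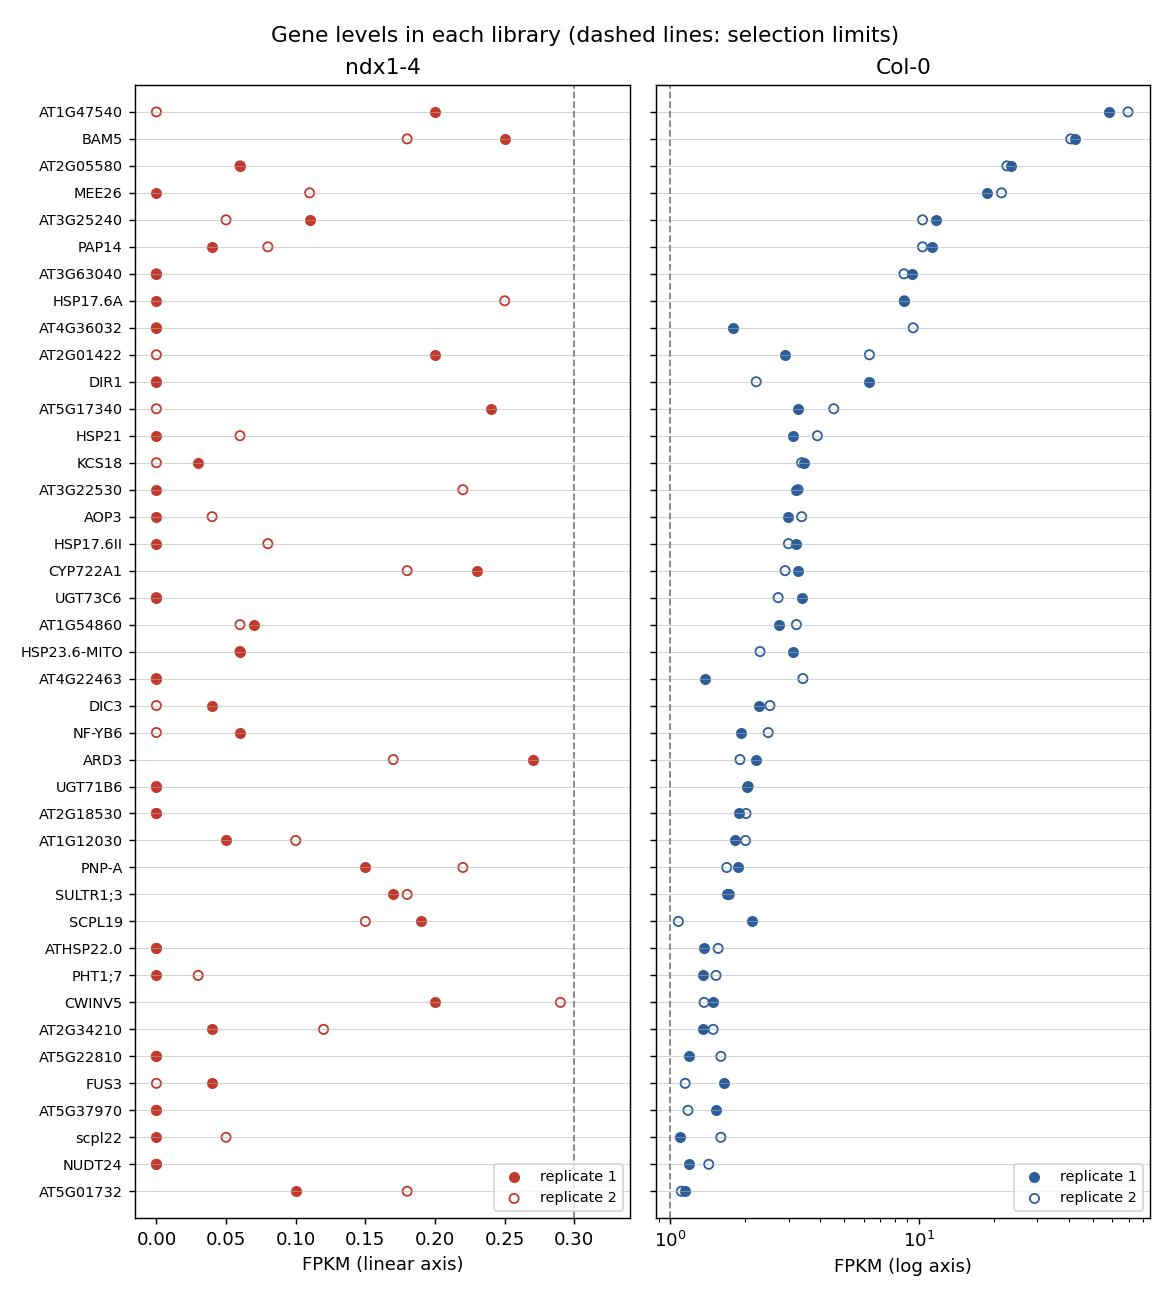
FPKM of the 41 genes in each library, ordered by mean Col-0 level, with ndx1-4 on a linear axis at the left and Col-0 on a log axis at the right; filled points are replicate 1, open points replicate 2, and dashed lines are the limits of the selection. In Col-0 6 genes had a mean of at least 10 FPKM, and 11 genes were at 0 in both ndx1-4 libraries.

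Zeros were spread over both mutant libraries. Of the 41 genes, 11 were listed at 0 in both ndx1-4 libraries, 8 in replicate 1 alone, 7 in replicate 2 alone, and 15 had a value above 0 in both. For the 30 genes with any value above 0 in ndx1-4, the mean left was between 0.157% (AT1G47540) and 17.1% (CWINV5) of the Col-0 mean, with a median of 1.64%. FPKM times the transcript length in kilobases gives the share of fragments a gene takes, in parts per 1000000, and this was 1.26 to 102 for the genes in Col-0, with a median of 3.34 and 7 genes under 2. Read depth is unknown, so a value of 0 cannot be turned into a limit on the level.

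The limits cut through a continuum. Just inside the ndx1-4 limit, CWINV5 had 0.20 and 0.29 FPKM, ARD3 0.27 and 0.17 FPKM, and BAM5 0.25 and 0.18 FPKM in the ndx1-4 libraries. Just outside it were MRD1 with 0.31 and 0 FPKM, DAR3 with 0.32 and 0.30 FPKM, and GDU6 with 0.17 and 0.33 FPKM. On the Col-0 side, SCPL19 (1.08 FPKM in its lower library), scpl22 (1.10) and AT5G01732 (1.11) were just inside. GLP8 (0.98 FPKM in its lower Col-0 library), AT1G20735 (0.83) and BZO1 (0.74) were just outside.

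**Figure D2:**
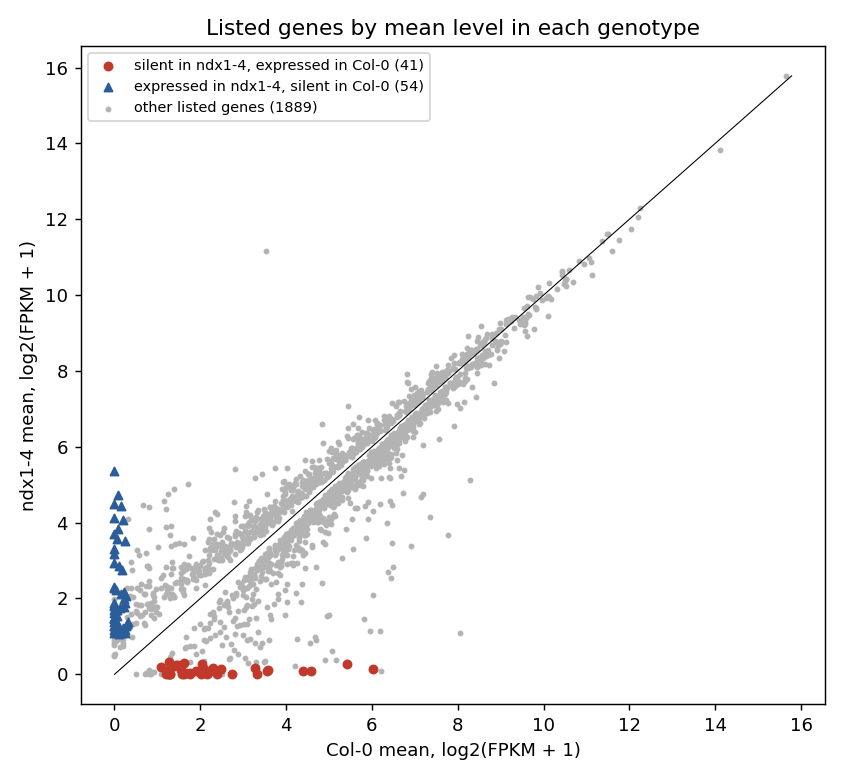
Mean level of each of the 1984 listed genes in ndx1-4 (vertical axis) against Col-0 (horizontal axis), both as log2(FPKM + 1), with the line of equality. The 41 genes lie along the bottom edge (red circles), and the 54 genes that meet the limits the other way round lie along the left edge (blue triangles).

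Regulators and enzymes of seed maturation formed one group. FUS3 (AT3G26790), a B3 transcription factor of embryo maturation, had 0.04 and 0 FPKM in ndx1-4, against 1.64 and 1.15 FPKM in Col-0. NF-YB6 (AT5G47670), the LEC1-like subunit of a CCAAT-binding factor, had 0.06 and 0 FPKM in ndx1-4, against 1.92 and 2.48 FPKM in Col-0. Both regulators were thus low in wild-type seedlings too. That their ndx1-4 and Col-0 values do not overlap is fixed by the rule, and 56.5% of all listed genes did not overlap in this direction. KCS18 (AT4G34520), also called FAE1, elongates fatty acids for seed oil. It had 0.03 and 0 FPKM in ndx1-4, against 3.47 and 3.38 FPKM in Col-0, and the Col-0 libraries lay close together. SCPL19 (AT5G09640), which makes sinapoylcholine in seeds, had 0.19 and 0.15 FPKM in ndx1-4, against 2.14 and 1.08 FPKM in Col-0. Its Col-0 libraries differed 1.98-fold, so its size rests partly on replicate 1. Outside this group, MEE26 (AT2G34870) is a hydroxyproline-rich glycoprotein gene named for an embryo-arrest phenotype. Its annotation gives no role in seed maturation. MEE26 had 0 and 0.11 FPKM in ndx1-4, against 18.8 and 21.5 FPKM in Col-0, among the highest levels of the set.

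Of 9 regulators of seed maturation on a list written from general knowledge, FUS3 and NF-YB6 were the 2 that the table lists. The other 7, LEC1, LEC2, ABI3 and the VAL repressors among them, have no value here. The list therefore holds no gene outside the selection that could be tested. Other seed transcripts went both ways. By limma at an adjusted p of 0.01, all 4 listed 2S albumin genes, all 7 listed storage globulin genes and all 7 listed oil body genes were lower in ndx1-4, while the 3 listed late embryogenesis abundant genes were higher. Of all listed genes, 55.9% passed as lower and 43.0% as higher. The globulins include the storage genes left out above, and what part remaining seed RNA has in the values of this group was not tested.

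Small heat shock proteins were the largest family. HSP17.6A (AT5G12030), a cytosolic chaperone of class II, had 0 and 0.25 FPKM in ndx1-4, against 8.71 and 8.74 FPKM in Col-0. Its neighbour HSP17.6II (AT5G12020), of the same class, had 0 and 0.08 FPKM in ndx1-4, against 3.22 and 2.99 FPKM in Col-0. These were the only adjacent pair of annotated genes within the set, and the Col-0 libraries agreed closely for each. HSP21 (AT4G27670), the chloroplast member, had 0 and 0.06 FPKM in ndx1-4, against 3.13 and 3.91 FPKM in Col-0. HSP23.6-MITO (AT4G25200), of mitochondria, had 0.06 and 0.06 FPKM in ndx1-4, against 3.13 and 2.30 FPKM in Col-0. HSP22.0 (AT4G10250), of the endoplasmic reticulum, had 0 in both ndx1-4 libraries, against 1.37 and 1.56 FPKM in Col-0. The 5 genes thus cover the cytosol and 3 further compartments. AT3G22530, annotated only as a heat shock protein, had 0 and 0.22 FPKM in ndx1-4, against 3.20 and 3.27 FPKM in Col-0, but every 50-base window of its transcript also occurs in the overlapping gene AT3G22520.

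The rest of a heat shock list of 16 genes, written from general knowledge with earlier results known, could be tested. Of the 16, 10 are listed and 5 of these belong to the set. The other 5 were all lower in ndx1-4 at an adjusted p of 0.01 (limma across all listed genes, Benjamini-Hochberg). Most listed genes passed this test (1110 lower and 853 higher, or 612 and 869 once libraries were scaled by median ratios), and the authors picked the table's genes from these very libraries, which leaves the calls without independent weight. AT1G53540, a class I small heat shock protein, had 0.44 and 0.21 FPKM in ndx1-4, against 4.96 and 5.76 FPKM in Col-0 (limma difference -2.27 ± 0.13 SE, adjusted p 3.25e-06). HSP17.4, of the same class, had 0.37 and 0.17 FPKM in ndx1-4, against 2.87 and 3.66 FPKM in Col-0 (limma difference -1.75 ± 0.14 SE, adjusted p 1.67e-05). Both missed the limit of 0.3 FPKM only through ndx1-4 replicate 1.

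The other 3 kept more of their level. AT5G51440, an HSP20-like gene, was left at 39.7% of the Col-0 mean (limma, adjusted p 3.65e-05). The chaperones HSP90.1 and HSP70 were left at 56.0% (limma, adjusted p 0.000169) and at 78.8% (limma, adjusted p 0.00128). With 1 library left out, neither HSP90.1 nor HSP70 passed in any of the 4 limma fits. Those fits leave 1 sample in a genotype, and most listed genes did not pass them either. HSP70 also did not pass after median-ratio scaling (limma, adjusted p 0.0636), whose factors came from listed genes alone. By annotated product, 15 small heat shock protein genes are listed of 45 annotated, 11 lower and 4 higher in ndx1-4. The 11 include the 5 genes of the set, which are lower by the rule. Among all listed genes, 56.5% were lower by mean. AT5G47600 had 6.48 and 5.78 FPKM in ndx1-4, against 1.35 and 1.22 FPKM in Col-0. Of the higher ones it changed most on the log2(FPKM + 1) scale, while AT2G03020 had the largest ratio (539% of its Col-0 mean).

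**Figure D3:**
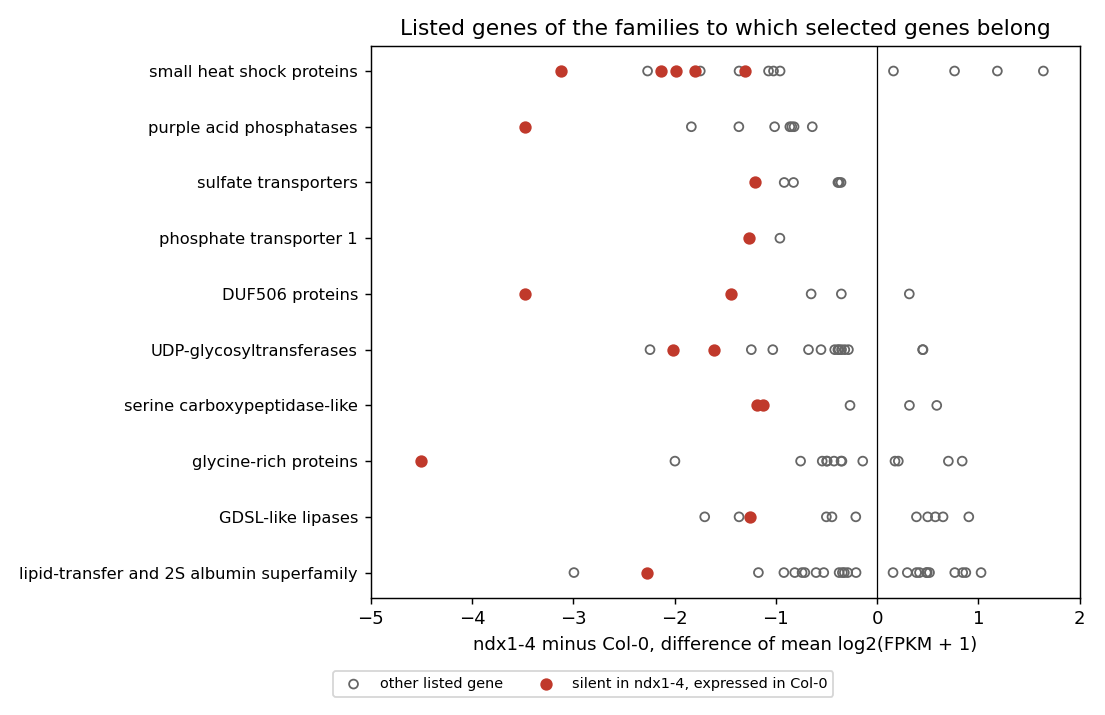
Difference between ndx1-4 and Col-0 in mean log2(FPKM + 1) for listed genes of 10 protein families, taken by annotated product after the values were known; red points are the selected genes and open points the other listed genes of the family. All 8 listed purple acid phosphatases and all 6 sulphate transporters lie left of 0, with 1 selected gene in each family. Among all listed genes, 56.5% were lower by mean. The other lipid-transfer and GDSL-like genes lie on both sides. Some tallied families of selected genes are not drawn. Among these, 2-oxoglutarate dioxygenases (6 listed genes higher, 2 lower) and B3 factors (2 higher, 1 lower) were mostly higher in ndx1-4. The other tallied families that are not drawn had at least as many lower as higher genes.

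Genes of phosphate and sulphur nutrition came next. PAP14 (AT2G46880), a purple acid phosphatase, an enzyme class that releases phosphate from organic compounds, had 0.04 and 0.08 FPKM in ndx1-4, against 11.3 and 10.4 FPKM in Col-0. PHT1;7 (AT3G54700), a phosphate transporter, had 0 and 0.03 FPKM in ndx1-4, against 1.36 and 1.53 FPKM in Col-0. The phosphatase was thus the more abundant of the 2 in wild-type seedlings, and both have P1BS matches in the stretches printed above. All 8 listed purple acid phosphatase genes, of 29 annotated, were lower in ndx1-4 by mean, PAP14 by the rule. Among all listed genes, 56.5% were lower by mean. PAP23 (0 in both ndx1-4 libraries, 0.71 and 0.88 FPKM in Col-0) and PAP25 (0 and 0.08 FPKM in ndx1-4, 0.65 and 1.04 FPKM in Col-0) were as low in the mutant as PAP14 but failed the Col-0 limit. SULTR1;3 (AT1G22150), a phloem sulphate transporter, had 0.17 and 0.18 FPKM in ndx1-4, against 1.69 and 1.73 FPKM in Col-0. The other 5 listed sulphate transporters were left at 48.0% to 77.5% of their Col-0 means.

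Other sulphur-related genes were low in both genotypes. ARD3 (AT2G26400), an acireductone dioxygenase of methionine salvage, had 0.27 and 0.17 FPKM in ndx1-4, against 2.21 and 1.91 FPKM in Col-0. AOP3 (AT4G03050), a dioxygenase that modifies the side chain of glucosinolates, had 0 and 0.04 FPKM in ndx1-4, against 2.98 and 3.38 FPKM in Col-0. AOP3 lies on chromosome 4 at 1343845 to 1346436, 19616 bases from NDX. BSL1, a listed gene between AOP3 and NDX, had 14.1 and 14.6 FPKM in ndx1-4, against 19.4 and 18.3 FPKM in Col-0, so the gene nearer to NDX kept 76.1% of its level. Linkage to the insertion and loss of NDX cannot be told apart for AOP3 in this design.

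Both DUF506 genes, whose automatic product names differ, were close to 0 in ndx1-4. AT3G25240 had 0.11 and 0.05 FPKM in ndx1-4, against 11.7 and 10.4 FPKM in Col-0. AT1G12030 had 0.05 and 0.10 FPKM in ndx1-4, against 1.82 and 2.01 FPKM in Col-0. The other 3 listed DUF506 genes were far more abundant and were left at 63.1% to 125% of their Col-0 means.

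The most abundant genes had mixed roles. AT1G47540, of the scorpion toxin-like knottin family of small cysteine-rich proteins, had 0.20 and 0 FPKM in ndx1-4, against 57.9 and 69.4 FPKM in Col-0, the highest Col-0 level of the set. BAM5 (AT4G15210), a beta-amylase outside plastids that releases maltose from glucans, had 0.25 and 0.18 FPKM in ndx1-4, against 42.3 and 40.8 FPKM in Col-0. The other listed beta-amylase, CT-BMY of the chloroplast, was left at 64.3% of its Col-0 mean, so the 2 differed widely in what remained. CWINV5 (AT3G13784), a cell wall invertase that splits sucrose, had 0.20 and 0.29 FPKM in ndx1-4, against 1.49 and 1.37 FPKM in Col-0. It kept the largest share of its Col-0 mean in the set.

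AT2G05580, a glycine-rich protein gene, had 0.06 and 0.06 FPKM in ndx1-4, against 23.5 and 22.6 FPKM in Col-0. It is the only gene of the set that overlaps a listed transposable element, against 15 of the 1984 listed genes. All 513 bases of that element, AT2TE09380 of the VANDAL17 family (chromosome 2, 2055857 to 2056369), lie within the gene. On the separate FPKM scale of the element table it had 41.0 and 0 FPKM in ndx1-4, against 2978 and 2704 FPKM in Col-0. Reads of the gene and of the element cannot be told apart. Of the other listed glycine-rich genes, GRP-3 was left at 71.0% and AT2G05510 at 59.1% of the Col-0 mean, while AT2G05540 reached 163%.

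Glycosyltransferases and a P450 made up a small metabolic group. UGT73C6 (AT2G36790), which glucosylates flavonols, had 0 in both ndx1-4 libraries, against 3.38 and 2.72 FPKM in Col-0. UGT71B6 (AT3G21780), which glucosylates abscisic acid, had 0 in both ndx1-4 libraries, against 2.04 and 2.06 FPKM in Col-0. CYP722A1 (AT1G19630), a cytochrome P450, had 0.23 and 0.18 FPKM in ndx1-4, against 3.27 and 2.90 FPKM in Col-0. Among 15 listed UDP-glycosyltransferase genes 13 were lower and 2 higher in ndx1-4. Among 25 listed P450 genes 17 were lower and 8 higher, so these families moved both ways. The lower ones include 2 glycosyltransferases and 1 P450 of the set, and 56.5% of all listed genes were lower by mean.

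Both glycosyltransferase transcripts share all of their 50-base windows with another locus, and the kit does not record the strand. UGT71B6 occupies exactly the same bases, chromosome 3, 7674904 to 7676519, as the long noncoding RNA AT3G21781 on the other strand. AT3G21781 is itself listed and belongs to the 54 genes with the opposite pattern, with 1.38 and 1.11 FPKM in ndx1-4, against 0 in both Col-0 libraries. The 2 transcripts are reverse complements of equal length, so reads without strand cannot be assigned to one or the other. Their sum was 1.38 and 1.11 FPKM in ndx1-4, against 2.04 and 2.06 FPKM in Col-0, which is lower in ndx1-4 but not silent. UGT73C6 lies inside the noncoding AT2G36792, which is not listed, and shares windows with DOGT1 (AT2G36800), a related glucosyltransferase that had 3.0 and 2.69 FPKM in ndx1-4, against 5.16 and 5.13 FPKM in Col-0.

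DIR1 (AT5G48485), a lipid-transfer protein needed for systemic acquired resistance, had 0 in both ndx1-4 libraries, against 6.29 and 2.22 FPKM in Col-0. It lies wholly within AT5G48480 on the other strand, which had 48.2 and 46.1 FPKM in ndx1-4, against 38.7 and 38.3 FPKM in Col-0. The overlapping gene was thus higher in ndx1-4 and many times as abundant, and the 2 Col-0 values of DIR1 differed 2.83-fold. What part the overlap has in the zeros of DIR1 was not tested.

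Part of the set shared sequence with other loci. At least 50% of the 50-base windows recurred at another locus for 7 of the 41 genes (17.1%), against 87 of 1984 listed genes (4.39%) and 7 of the 54 genes with the mirrored pattern (13.0%), with at least 1 FPKM in both ndx1-4 and at most 0.3 FPKM in both Col-0 libraries. These 7 were AT3G22530, AT4G22463, AT4G36032, AT5G01732, DIR1, UGT71B6 and UGT73C6. They supplied 5 of the 11 genes at 0 in both ndx1-4 libraries. Without them 34 genes remained, with a median difference of -1.75 on the log2(FPKM + 1) scale. An annotated gene on the opposite strand overlapped 14 of the 41 (34.1%), against 470 of the 1984 (23.7%) and 9 of the 54 (16.7%). A further 9 genes shared between 0.487% and 48.8% of their windows, with AT5G17340, CYP722A1 (25.9%), AT5G22810 (22.5%), CWINV5 and NF-YB6 (12.5% each) at the upper end. No window was shared for 25 of the 41 genes, BAM5, PAP14, FUS3, KCS18 and all 5 named small heat shock genes among them.

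The set held 3 noncoding RNAs. AT4G36032, a long noncoding RNA almost wholly antisense to AT4G36030, had 0 in both ndx1-4 libraries, against 1.79 and 9.49 FPKM in Col-0, a 5.30-fold gap between Col-0 libraries and the widest in the set. AT2G01422 had 0.20 and 0 FPKM in ndx1-4, against 2.90 and 6.33 FPKM in Col-0. AT5G01732, which overlaps AT5G01730, had 0.10 and 0.18 FPKM in ndx1-4, against 1.15 and 1.11 FPKM in Col-0. The first 2 of these, with DIR1 and AT4G22463, are the 4 genes whose Col-0 libraries differed more than 2-fold. The 3 noncoding genes were 7.32% of the set, against 1.41% of all listed genes and 5.56% of those with the mirrored pattern.

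A carrier, a signalling peptide and a transcription elongation gene were present at low levels. DIC3 (AT5G09470), a mitochondrial dicarboxylate carrier, had 0.04 and 0 FPKM in ndx1-4, against 2.28 and 2.52 FPKM in Col-0. PNP-A (AT2G18660), a secreted plant natriuretic peptide, had 0.15 and 0.22 FPKM in ndx1-4, against 1.87 and 1.69 FPKM in Col-0. AT2G34210, annotated as the transcription elongation factor Spt5, had 0.04 and 0.12 FPKM in ndx1-4, against 1.36 and 1.49 FPKM in Col-0. In each of these the Col-0 libraries lay within 1.5-fold of each other, as they did in 36 of the 41 genes.

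Enzymes with no more than a family annotation followed the same form. AT2G18530, a protein kinase, had 0 in both ndx1-4 libraries, against 1.90 and 2.02 FPKM in Col-0. AT5G22810, a GDSL-like lipase, had 0 in both ndx1-4 libraries, against 1.19 and 1.60 FPKM in Col-0. NUDT24 (AT5G19470), a nudix hydrolase, had 0 in both ndx1-4 libraries, against 1.19 and 1.43 FPKM in Col-0. The last 2 of these stand close to the Col-0 limit of 1 FPKM, and the kinase lies a little above it. AT5G37970, a methyltransferase, had 0 in both ndx1-4 libraries, against 1.53 and 1.18 FPKM in Col-0, while the nearby related gene AT5G37990 was left at 74.8% of its Col-0 mean. The carboxypeptidase scpl22 (AT2G24000) had 0 and 0.05 FPKM in ndx1-4, against 1.10 and 1.60 FPKM in Col-0.

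The last 4 genes encode proteins of unknown role. AT3G63040 had 0 in both ndx1-4 libraries, against 9.35 and 8.72 FPKM in Col-0, the highest Col-0 level among the genes at 0. AT5G17340, a putative membrane lipoprotein, had 0.24 and 0 FPKM in ndx1-4, against 3.28 and 4.55 FPKM in Col-0. AT1G54860, a GPI-anchored glycoprotein precursor, had 0.07 and 0.06 FPKM in ndx1-4, against 2.75 and 3.22 FPKM in Col-0. AT4G22463 had 0 in both ndx1-4 libraries, against 1.38 and 3.42 FPKM in Col-0, and shares 90.4% of its windows with AT4G22460. It adjoins a run of listed lipid-transfer genes that were higher in ndx1-4, such as AT4G22520 with 98.1 and 93.0 FPKM in ndx1-4, against 43.8 and 49.1 FPKM in Col-0.

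Features that the rule did not use were compared as shares. The genes were short: the median transcript was 1179 bases with 2 exons, against 1733 bases and 4 exons over all listed genes, and 14 of the 41 (34.1%) had a single exon, against 14.0%. The 54 genes with the mirrored pattern were close to this, with a median of 1205 bases and 27.8% of single-exon genes. Both sets were also low in level, and the part of level in these features was not tested. By chromosome, the 41 genes were 5, 10, 7, 8 and 11 on chromosomes 1 to 5, and chromosome 1 held 12.2% of them, against 25.2% of all listed genes and 14.8% of the mirrored set.

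Listed genes around the set went both ways. Of the 82 places on either side of the 41 genes, 73 hold a gene that is not listed, 6 a gene that was lower and 3 a gene that was higher in ndx1-4, with the 2 HSP17.6 genes counted as neighbours of each other. An adjacent annotated gene was listed for 9 of the 41 genes (22.0%), against 16.6% of all listed genes. By mean, 56.5% of all listed genes were lower in ndx1-4. Within 20 kb of the 41 genes there were 59 other listed genes, 26 lower and 33 higher in ndx1-4. One of them, OLEO1, an oil body protein gene 15348 bases from HSP23.6-MITO, had 6.82 and 5.42 FPKM in ndx1-4, against 86.2 and 91.7 FPKM in Col-0. Another, AT5G09570, lies within 20 kb of both DIC3 and SCPL19, and had 0.79 and 0.97 FPKM in ndx1-4, against 10.96 and 11.43 FPKM in Col-0. Both are among the most strongly lower of the 59. In the other direction, AT5G09500, 3188 bases from DIC3, had 3.70 and 3.71 FPKM in ndx1-4, against 0.25 and 0.78 FPKM in Col-0.

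Motifs were searched on both strands in windows running from 250 bases before to 50 bases after the annotated start. The RY core CATGCA occurred in 12 of the 41 windows (29.3%), against 13.1% of all listed genes and 10.4% of 37897 annotated genes. The heat shock element core GAANNTTC occurred in 11 (26.8%), against 11.8% of all listed and 11.4% of annotated genes. P1BS, GNATATNC, occurred in 8 (19.5%), against 10.0% of all listed and 6.13% of annotated genes. These 3 motifs were thus more frequent in the set than among the listed genes, which is a description without a test. The G-box CACGTG occurred in 1 window (2.44%), against 10.2% of listed genes and 6.46% of annotated genes. The abscisic acid element ACGTGNC (14.6%, against 13.8% of listed genes), the W-box core TTGAC (48.8%, against 50.9%) and the TATA box TATAAA (63.4%, against 56.2%) differed less. G-box and ABRE matches can overlap at the letters ACGTG. P1BS and heat shock element matches can also fall on the same bases, as at GAATATTC upstream of AT3G25240.

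**Figure D4:**
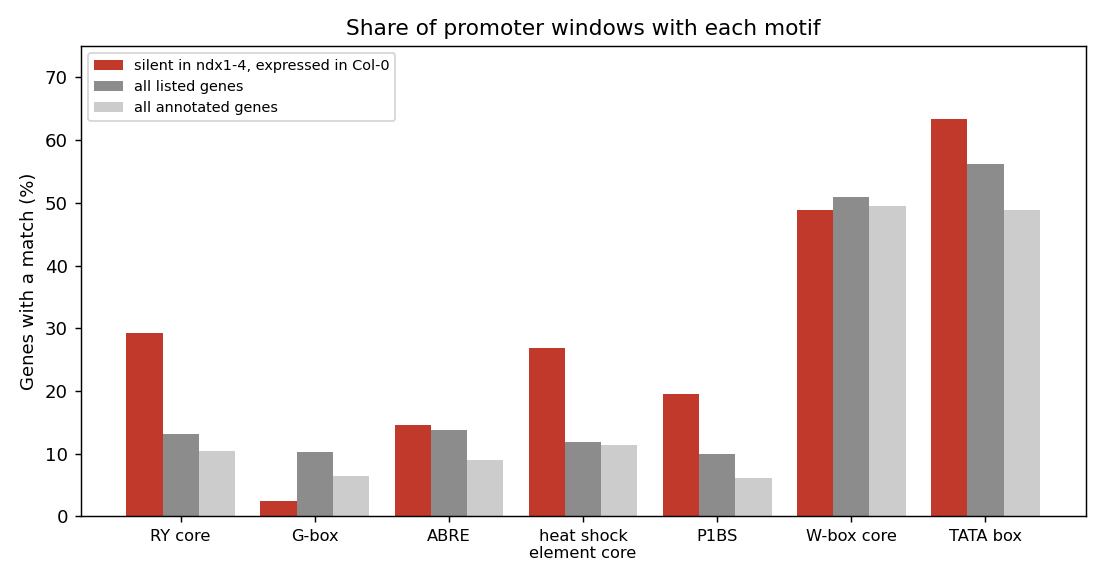
Percent of promoter windows, from 250 bases before to 50 after the start, that hold each of 7 motifs on either strand, for the 41 genes (red), all listed genes (dark grey) and all annotated genes (light grey). The RY core, heat shock element core and P1BS bars are taller for the 41 genes, and the G-box bar is shorter.

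The matches did not follow the named roles closely. In the 250 upstream bases, HSP21 was the only one of the 5 small heat shock genes with a GAANNTTC match, 100 bases before its start. DIR1, PNP-A and AT3G22530 had 2 such matches each. P1BS matches lay upstream of PAP14 and AT3G25240 (2 each), PHT1;7 and AT1G12030 (1 each), and also of FUS3, NUDT24, AT5G17340 and AT5G01732. RY matches lay upstream of FUS3 and KCS18, but also of HSP17.6II and HSP22.0, and not of NF-YB6 or SCPL19. The 3 RY matches of AT1G54860 overlap in the 10-base run tgcatgcatg shown above in capitals.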

How the data were processed

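mRNA-seq libraries (TruSeq RNA v2, which does not keep strand, single reads of 50 bases on a MiSeq) were made from 2 ndx1-4 and 2 Col-0 samples. The authors quantified reads with Salmon against Araport11 and tested genotypes with DESeq2. The deposited gene values, written with digit commas, are FPKM rounded to 0.01, for 1984 genes that passed an adjusted p of 0.01. The deposited element table holds FPKM of 49 elements from a separate quantification. The authors' columns of log2 fold change and adjusted p were not used. Read depth is unknown. The submitters' processing notes also name HISAT2, deepTools and TAIR10. All 1984 identifiers had the same coordinates in RefSeq TAIR10.1.

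Commas were removed and the limits applied in Python 3 (pandas, NumPy). Because the values are FPKM, no count model was run, and log2(FPKM + 1) of all 1984 genes was fitted in R 4.3.3 with limma 3.58.1, using its trend option, and p-values were adjusted by Benjamini-Hochberg. It was tested on simulated data. The genes and lists were chosen with earlier results of these data known. Every selected gene was named, with those nearest the limits and the other genes of the 2 lists that hold any of them. Upstream sequences are shown for some high or related genes, all with a motif match. Families were taken by product name after values were seen. Shared sequence was counted as 50-base windows of the annotated transcripts that recur, on either strand, at another locus. Alternatives were other limits, pseudocounts, scaling, a filter, a replicate block and each library left out.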

Additional observations from a re-analysis of the deposited data

How the results depend on the processing

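The selection depended on its limits. A Col-0 minimum of 2 or 5 FPKM left 22 or 8 genes, and an ndx1-4 maximum of 0.1 or 0 FPKM left 25 or 11. Without 1 library there were 43 to 49 genes, which include all 41 by construction. The median difference was -4.36 and -7.02 with pseudocounts of 0.1 and 0.01, by construction, and -1.79 to -1.69 without 1 library. Median-ratio scaling gave -1.67. Its factors came from listed genes alone, all called as changed by the authors, so it moves their median towards 0 by construction. The median of all listed genes moved by about 0.19 (from -0.20 to -0.01 on the log2 scale). With this scaling the share of limma calls that were lower in ndx1-4 fell to 41.3%, against 56.5% unscaled. Over all listed genes 1963 passed limma at an adjusted p of 0.01, against 1958 with the replicate block and 773 to 815 without 1 library, where fewer samples were fitted. Replicate numbers did not pair the libraries (correlation of deviations 0.02 over genes). The 10 lower heat shock calls became 9 after scaling, HSP70 missing with an adjusted p of 0.0636 in limma. Of these 10 genes, 5 belong to the set, and their calls carry no test. Both listed seed regulators belong to the set, so their calls carry no test either. Without 1 library the log2(FPKM + 1) difference was -1.37 to -1.08 for FUS3 and -1.76 to -1.50 for NF-YB6. In the 250 upstream bases alone, TATA box matches fell to 43.9% of the genes, since that window is shorter. Leaving out genes with shared sequence was added after seeing the data. Unknown depth, 2 libraries per genotype and reads without strand limit what zeros show.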
